A study of Mus musculus with 8 samples.

Results

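Erdr1, Nnt, Wdfy1, Entpd4, Ide and Nlrp12 are 6 genes known or suspected to differ between substrains of the C57BL/6 mouse. Their signal was examined in neutrophils from wild-type (WT) mice and from mice lacking the transcription factor ATF3 (ATF3 KO), as a check on strain background. A gene was represented by every non-control feature, a spot of 1 probe on the array, whose accession is a RefSeq transcript of that gene. The Erdr1 feature was taken by its accession, NM_133362. Of the 6 genes, 5 had such a feature, out of 20661 named genes on the array. They had 10 features in all, 4 for Wdfy1, 2 for Entpd4, 2 for Nlrp12, 1 for Ide and 1 for Erdr1, out of 55681. Nnt had none, since the gene table lists only NM_001308506 for it, which no feature carries. The genes were chosen with values from the same WT and ATF3 KO arrays in view, Erdr1 among them for its large difference. Their own differences between the genotypes are therefore described without a test.

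The cells were the Ly6G-positive fraction of bone marrow, isolated with magnetic beads and taken as neutrophils. There were 4 WT and 4 ATF3 KO samples, each hybridised to 1 single-colour array. Both genotypes are labelled as C57BL/6, with no substrain, age or sex given, and no detail of the Atf3 allele. The labels disagree on culture: the series design describes RNA taken directly from sorted marrow cells, while 7 sample descriptions, including all 4 of ATF3 KO, refer to a week in methylcellulose with 4-OHT. They do not say whether the samples came from separate animals, so the error measures the spread between samples, which may be technical. The WT arrays lay in one row of a single slide and the ATF3 KO arrays in the other, so the effect of the row cannot be told apart from that of the genotype.

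C57BL/6 colonies kept apart for many generations have fixed different mutations, and an engineered allele can carry the variants of the substrain or embryonic stem cells in which it was made. Nnt, an enzyme of the inner mitochondrial membrane that uses the proton gradient to make NADPH, lacks several exons in C57BL/6J. In the same substrain Nlrp12, a NOD-like receptor of myeloid cells that dampens inflammatory signalling, carries an amino acid change linked to neutrophil recruitment, and Ide, the insulin-degrading enzyme, lies in a segment that is duplicated in some animals. Erdr1 lies in the pseudoautosomal region, a repeat-rich stretch shared by the X and Y chromosomes.

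Every level below is the log2 processed signal minus the 75th percentile of its array, so that 0 marks a feature at that percentile, and errors are SD over 4 arrays unless called SE. The 75th percentile ran from 113 to 216 intensity units over the 8 arrays, and from 46.0% to 55.3% of features were above background. Features above background on 4 or more arrays entered the test. The limma threshold, an adjusted p under 0.05, was passed by 0.208% of the 27942 tested features, and an unadjusted p under 0.05 was reached by 22.7%. The counts over gene lists stand against these shares. Across all tested features the median difference, ATF3 KO minus WT, was −0.10, and differences are also given relative to it. The feature for Atf3 itself was at 0.73 ± 0.07 in WT and at 1.24 ± 0.27 in ATF3 KO (difference 0.51, SE 0.14, limma adjusted p = 0.13). With normexp background correction (adjusted p = 0.0409) and in the authors' deposited log2 values (adjusted p = 0.0342) that difference passed the threshold of 0.05. The position of this probe relative to the deletion is not given in the sources used here, so it does not check the labels. Of 11 neutrophil markers, 10 were measured, with a summed level of 8680 to 11000 times the 75th percentile in WT and of 10600 to 12900 times in ATF3 KO. Ly6g had no matched feature. No marker of another cell type passed limma's threshold, but for 3 of 6 such lists the summed levels of the groups did not overlap. They ran from 44.8 to 58.8 in WT and from 64.3 to 84.1 in ATF3 KO for 9 B-lineage markers, and from 57.6 to 84.6 and from 33.2 to 49.1 for 6 stromal markers. For 3 measured T and NK cell markers they ran from 5.92 to 7.42 and from 4.35 to 5.78. The sums overlapped for erythroid, platelet and monocyte markers. Which lists lay apart depended on the measure. By mean log2 level they were B-lineage (0.75 to 1.21 in WT, 1.32 to 1.81 in ATF3 KO) and monocyte markers (3.77 to 3.96, 3.45 to 3.73). By that level the groups overlapped for stromal markers (1.51 to 1.96, 0.84 to 1.53). The same was true of T and NK cell markers (0.31 to 0.60, −0.18 to 0.46). The part of these cells in the results below was not tested.

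Erdr1, named for a secreted factor that regulates erythroid differentiation, was far lower in every ATF3 KO sample than in any WT sample. Its processed signal was 1346, 1500, 1019 and 429 in WT replicates 1 to 4, and 36.9, 33.8, 25.9 and 27.0 in ATF3 KO replicates 1 to 4. All 8 values were above background. In ATF3 KO the scaled levels ran from −2.42 to −2.06. The lowest level of any feature above background on those 4 arrays was −3.39 to −2.74. The fold values for the gene therefore rest on dim signal in ATF3 KO. After scaling its level was 2.40 ± 0.60 in WT and −2.20 ± 0.16 in ATF3 KO (n = 4 each). The difference was −4.59 (SE 0.26), which is 24.1-fold. The closest pair of arrays across the groups, WT replicate 4 and ATF3 KO replicate 4, differed 11.9-fold, and the farthest pair 37.2-fold. Only 2 of the 27942 tested features fell by more. The difference was −2.99 with normexp background correction and −3.22 in the authors' deposited log2 values.

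**Figure D1:**
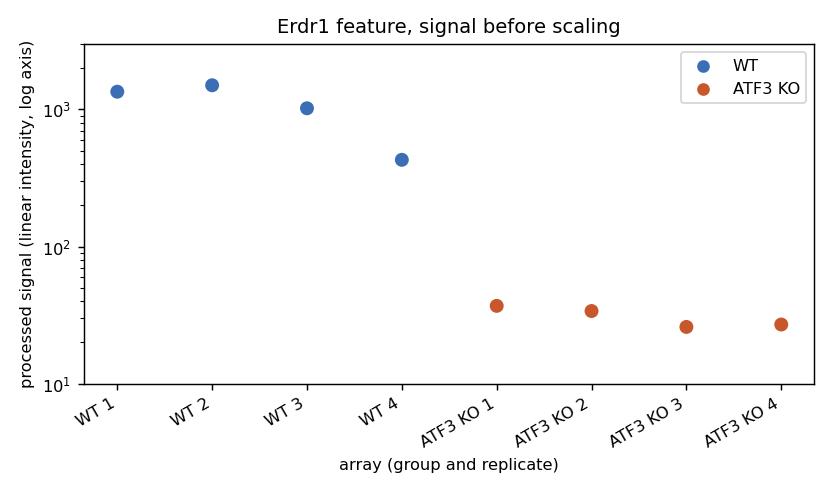
Processed signal of the Erdr1 feature (vertical log axis, linear intensity units before scaling) on each of the 8 arrays, WT in blue and ATF3 KO in orange, 1 point per array. The ATF3 KO arrays lie between 25.9 and 36.9 and the WT arrays between 429 and 1500, with WT replicate 4 the lowest of its group.

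The WT samples did not share a single Erdr1 level. Replicates 1, 2 and 3 lay within 0.17 of each other on the log2 scale, at 2.65, 2.80 and 2.63, and replicate 4 was at 1.51, which is 1.18 below their mean. The 4 ATF3 KO values spanned 0.36. On WT replicate 4, 138 of 27922 features lay at least as far below the mean of the other WT arrays (0.494%), against 38 to 41 features for each of the other 3 arrays. The mean level of 5 erythroid markers was also lowest in that sample, at 3.94, against 4.58 to 5.05 in the other WT samples and 4.49 to 4.70 in ATF3 KO. The same sample had the lowest mean level of B-lineage markers (0.75, against 1.01 to 1.21 in the other WT samples) and of platelet markers (1.43, against 1.64 to 1.93), and the highest of neutrophil markers in WT (9.72). Its mean level of T and NK cell markers was also the highest in WT (0.60, against 0.31 to 0.35). Its stromal and monocyte markers lay within the range of the other WT samples. The part of these cells and of the array measures in the Erdr1 value was not tested. Without WT replicate 4 the difference was −4.89.

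The measured genes nearest to Erdr1 on the X chromosome, all on one side of it in gene order, had differences above 0, and none passed limma's threshold. The differences were 0.21 (SE 0.23) for 4933400A11Rik, 0.38 (SE 0.12) for Hccs, which attaches heme to cytochrome c, and 0.67 (SE 0.50) for Arhgap6. Arhgap6 was near background, at −3.48 ± 1.13 in WT and −2.81 ± 0.50 in ATF3 KO, and above background on only 2 arrays of each group. Xist, which is expressed from the inactive X chromosome of females, reached −1.49 ± 0.14 in WT and −1.59 ± 0.22 in ATF3 KO, above background on each of the 8 arrays (limma adjusted p = 0.636). The features of the Y-linked genes Ddx3y, Eif2s3y, Kdm5d and Uty were above background on 0 arrays. Mid1, which spans the pseudoautosomal boundary, and Asmt, Sts and Akap17a had no matched feature.

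Wdfy1 encodes an endosomal protein that helps recruit the adaptor TRIF to Toll-like receptors 3 and 4. Its 4 features gave small differences. The brightest, A_55_P2092730, was at 3.56, 3.71, 3.71 and 3.63 in WT and at 3.67, 3.50, 3.57 and 3.29 in ATF3 KO, so the groups overlapped. Its difference of −0.14 (SE 0.11) was −0.04 relative to the median of all features. A_55_P2070686 differed by −0.11 (SE 0.13) and A_66_P118236 by −0.11 (SE 0.12), both with overlapping groups and both within 0.01 of the median of all features. A_52_P511821 alone had groups that did not overlap. It was at −0.30, −0.20, −0.31 and −0.39 in WT and at −0.64, −0.48, −0.53 and −0.54 in ATF3 KO, a difference of −0.25 (SE 0.09) or −0.15 relative to the median. That difference was −0.16 with normexp correction and −0.10 with the percentile taken over probes above background on all arrays. In these settings the median of all features was −0.03 and 0.05. The features that overlapped include 1 with the same accession, NM_027057. Among 9 measured genes of the TRIF route and the Wdfy family, 0 passed limma's threshold and 1 had an unadjusted p under 0.05, against 22.7% of all features. Their median was −0.06 relative to all features. The smallest p-values were those of Tbk1, the kinase downstream of TRIF (−0.26, SE 0.11), Wdfy3 (−0.31, SE 0.15) and Tlr4 (−0.44, SE 0.26), with adjusted p from 0.195 to 0.305.

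Entpd4 encodes a nucleoside diphosphatase of the Golgi and lysosomes. Its brighter feature was at 0.89, 0.84, 0.92 and 0.83 in WT and at 0.38, 0.42, 0.65 and 0.51 in ATF3 KO. All 4 ATF3 KO samples were below all 4 WT samples, which lay close together. The means were 0.87 ± 0.04 and 0.49 ± 0.12, and the difference of −0.38 (SE 0.10), or −0.28 relative to the median had the same sign in every setting tried. A lower difference was found in 6.79% of tested features. The dimmer feature, A_52_P582907, was above background on 2 WT arrays and on 0 ATF3 KO arrays and did not enter the test. Its measured means were −3.39 ± 0.39 and −3.85 ± 0.39, with overlapping groups, and no fold can be given. The table lists a second gene, Entpd4b, on the same chromosome, and whether these features also read its transcripts was not tested. Of 5 measured relatives, 0 passed the threshold and 1 had an unadjusted p under 0.05. That was Entpd5, a nucleotidase of the endoplasmic reticulum (−0.39, SE 0.12, limma adjusted p = 0.155). Entpd3 (−0.25, SE 0.14) and Entpd6 (−0.25, SE 0.14) came next, with adjusted p of 0.282 and 0.291.

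**Figure D2:**
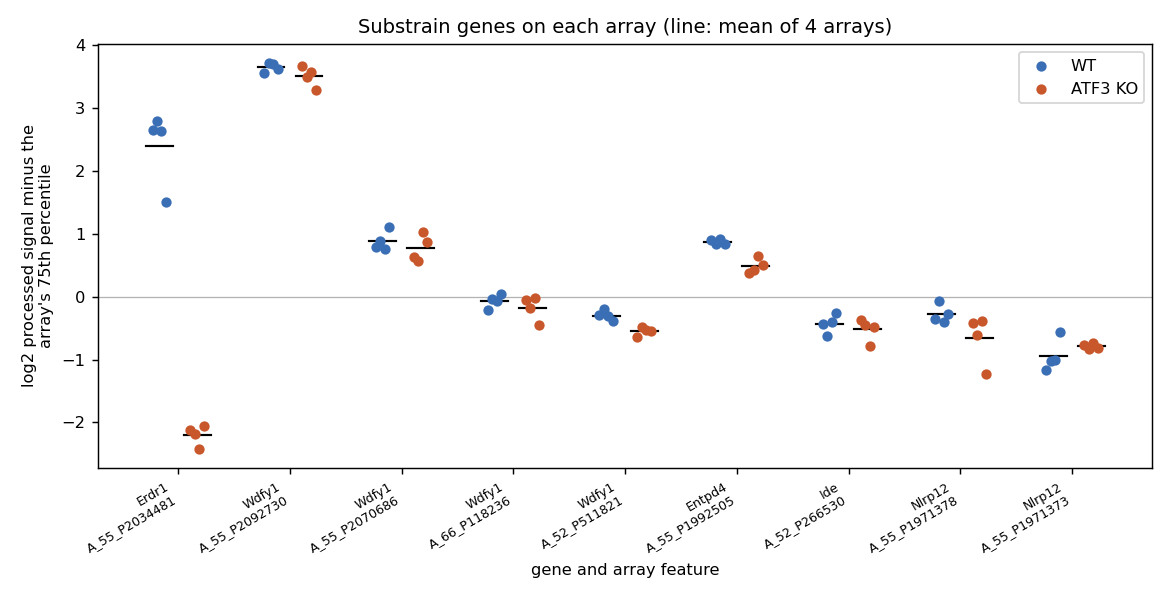
Level of the 9 tested features (vertical axis, log2 processed signal minus the array's 75th percentile) on each array, with WT in blue, ATF3 KO in orange and a line at the mean of 4 arrays. The Erdr1 group means differ by −4.59, and the other 8 features by −0.38 to 0.15.

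Ide, a zinc metalloprotease that degrades insulin and other small peptides, had the smallest difference of the 9 tested features. Its feature was at −0.43, −0.63, −0.40 and −0.26 in WT and at −0.37, −0.45, −0.78 and −0.48 in ATF3 KO. The groups overlapped, with the lowest value in ATF3 KO replicate 3. The means were −0.43 ± 0.15 and −0.52 ± 0.18, and the difference of −0.09 (SE 0.12) was 0.01 relative to the median of all features. Fgfbp3, which lies near Ide on the same chromosome, was above background on 2 WT and 3 ATF3 KO arrays and differed by 0.12 (SE 0.26, limma adjusted p = 0.782). The mitochondrial processing peptidase subunits Pmpcb (−0.29, SE 0.12) and Pmpca (−0.29, SE 0.13), then the endothelin-converting enzyme Ece1 (−0.17, SE 0.16), had the smallest p-values of 5 measured proteases, with limma adjusted p from 0.197 to 0.501. None of the 5 passed limma's threshold, and 2 had an unadjusted p under 0.05.

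The 2 features of Nlrp12 pointed in opposite directions. A_55_P1971378 was at −0.35, −0.07, −0.40 and −0.28 in WT and at −0.41, −0.61, −0.39 and −1.23 in ATF3 KO, a difference of −0.38 (SE 0.19). Much of that difference came from ATF3 KO replicate 4, and without it the difference was −0.19. A_55_P1971373 was at −1.17, −1.02, −1.004 and −0.57 in WT and at −0.77, −0.83, −0.74 and −0.82 in ATF3 KO, a difference of 0.15 (SE 0.13). Both carry the accession NM_001033431 and both had overlapping groups, so no common direction was measured for the gene. The positions of the 2 features relative to the amino acid change in Nlrp12 are not given in the sources used here. Whether that change affects their signal was not tested. Among 11 measured NOD-like receptor and inflammasome genes, 0 passed limma's threshold and 4 had an unadjusted p under 0.05, against 22.7% of all features. The smallest p-values were those of Nlrc5, a regulator of MHC class I genes (0.71, SE 0.22), the inflammasome adaptor Pycard (−0.41, SE 0.13) and Naip5, a sensor of flagellin (0.39, SE 0.13), with adjusted p from 0.152 to 0.166.

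No level is given under the name Nnt. Features with NM_008710, an accession absent from the gene table that may be an older entry of this gene, were measured and are given under that accession alone. Of 13 other genes of mitochondrial NADPH supply and peroxide removal, 12 were measured. None passed limma's threshold, 2 had an unadjusted p under 0.05, and their median was −0.04 relative to all features. Glrx2, a mitochondrial glutaredoxin, differed by 0.59 (SE 0.18, limma adjusted p = 0.151). Sod2, the mitochondrial superoxide dismutase, differed by −0.30 (SE 0.11, adjusted p = 0.182), and Glud1, glutamate dehydrogenase, by −0.22 (SE 0.12, adjusted p = 0.273).

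Over the 10 features of the named genes, 9 passed the filter on dim signal. Of these 9, which include 4 of Wdfy1, 8 were lower in ATF3 KO, against 65.0% of all tested features. Of the same 9, 7 lay below the median of all features. The groups of 4 arrays did not overlap for 3 of the 9, the features of Erdr1, Entpd4 and A_52_P511821 of Wdfy1, all lower in ATF3 KO. The same held for 14.4% of all tested features in either direction and for 10.4% as lower in ATF3 KO. Because the genes were chosen with this contrast known, nothing is read from these counts.

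**Figure D3:**
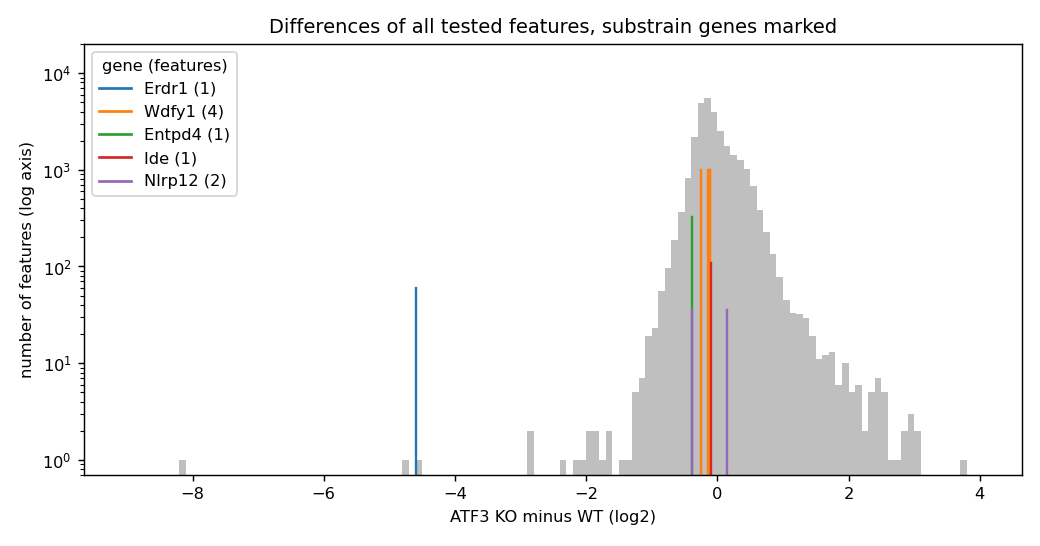
Number of tested features (vertical log axis) by their difference, ATF3 KO minus WT (horizontal axis, log2), in grey, with coloured lines at the 9 features of the named genes. Erdr1 at −4.59 stands far in the lower tail, and the other 8 features lie between −0.38 and 0.15, within the main body; line height has no meaning.

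Other genes with a described difference between C57BL/6 substrains were read for comparison. The list held 9 genes, of which 5 were measured. The retinal gene Crb1 and Adcy5, Zp2 and Gabra2 did not reach background on 4 arrays. Of the 5, 0 passed limma's threshold and 0 had an unadjusted p under 0.05, and their median was −0.06 relative to all features. Mmrn1, multimerin of platelets, was at −1.18 ± 0.23 in WT and at −0.81 ± 0.74 in ATF3 KO, above background on each array. Dock2, a Rac activator of leukocytes duplicated in a C57BL/6N colony, differed by −0.20 (SE 0.13, limma adjusted p = 0.347). Cyfip2, an actin regulator with an amino acid change in C57BL/6N, differed by −0.17 (SE 0.11, adjusted p = 0.351). All its ATF3 KO values were below those of WT, as for 10.4% of all tested features.

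Genes next to the 6 in gene order were compared in the same fit, up to 3 measured genes on each side. Of 31 such genes, 0 passed limma's threshold and 9 had an unadjusted p under 0.05, against 22.7% of all features. Their median difference was −0.01 relative to all features, with 16 of 31 below it. Around Entpd4 the 6 neighbours ran from −0.43 to 0.93, around Wdfy1 from −0.42 to 0.17, around Ide from −0.29 to 0.94, and around Nnt from −0.42 to 0.00. The smallest p-values belonged to D7Ertd143e (0.55, SE 0.16, limma adjusted p = 0.136), a noncoding gene that overlaps Nlrp12, to 4931408D14Rik beside Ide (0.94, SE 0.28, adjusted p = 0.141) and to Hccs beside Erdr1.

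**Figure D4:**
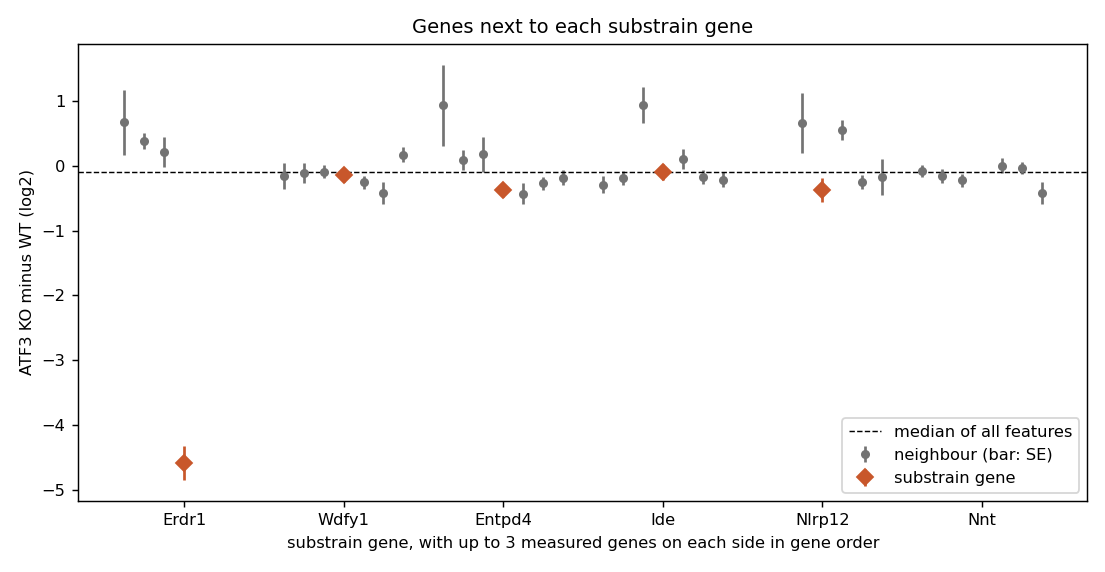
Difference, ATF3 KO minus WT (vertical axis, log2, bars SE), for the brightest feature of each named gene (orange diamonds) and for up to 3 measured genes on each side in gene order (grey points); the dashed line is the median of all features. No neighbour of Erdr1 is below 0.21, whereas Erdr1 is at −4.59, and Nnt has neighbours only.

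The pattern of each gene over the 8 arrays was set against 13075 other named genes by Pearson's r, as a description. The genes most like Erdr1 were Tiam2 (r = 0.988), an activator of the GTPase Rac that differed by −8.15, Gopc (0.984) and AW146154 (0.983). For these the separation of the genotypes sets r. Those most like Entpd4 were Pacrgl (0.979), Iqcc (0.978) and Spata6 (0.974), and those most like Wdfy1 were Emcn (0.977), Emc6 (0.969) and Rnf146 (0.968). The groups of that Entpd4 feature also did not overlap. The complement gene Hc (0.995), Urgcp (0.995) and the glucose transporter gene Slc2a3 (0.993) were most like Nlrp12. Its brightest feature was at −1.23 in ATF3 KO replicate 4 and at −0.61 to −0.07 on the other arrays. That array therefore weighs heavily in its r. For Ide, Car15 (0.918), Fbxl20 (0.914) and Cyp2t4 (0.912) came closest.

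Of the brightest features of the 5 genes, Erdr1 had the largest difference in the main fit and in each of 19 alternatives. Because Erdr1 was chosen with its large difference in view, this rank is only a description. All settings reuse the same 8 arrays or a part of them. Erdr1 was lower in ATF3 KO in 19 of 19 alternatives, from −4.89 to −2.99. The brighter Entpd4 feature was lower in 19 of 19, from −0.46 to −0.23. The first Nlrp12 feature was also lower in 19 of 19, from −0.47 to −0.19. The second, dimmer Nlrp12 feature was higher in ATF3 KO in each of its 18 alternatives, from 0.01 to 0.30. The Ide feature ran from −0.17 to 0.06 and the brightest Wdfy1 feature from −0.22 to 0.01, so neither kept the same sign in every setting. These differences are not relative to the median of all features, which itself ran from −0.18 to 0.05 over the settings. Part of their range is therefore the scaling shared by all features.

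**Figure D5:**
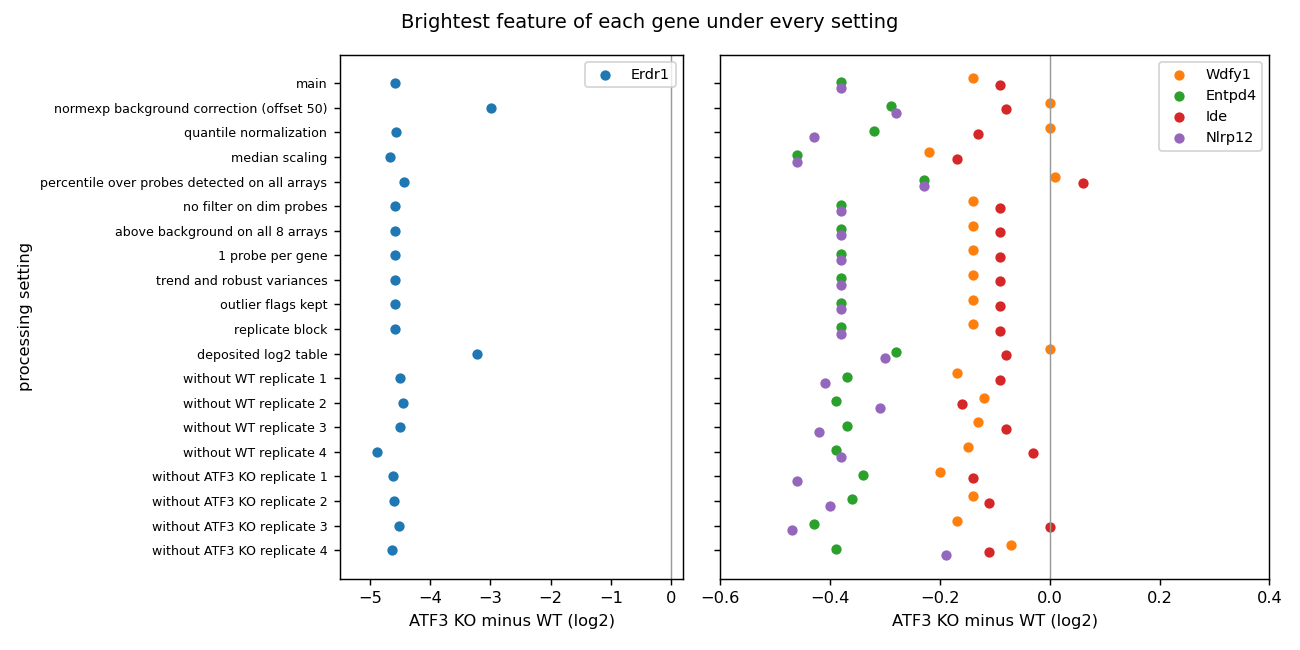
Difference, ATF3 KO minus WT (horizontal axis, log2), of the brightest feature of each gene under the main setting and 19 alternatives (rows), Erdr1 on the left and the others on the right with their own scale. Erdr1 stays between −4.89 and −2.99, whereas Wdfy1 and Ide reach 0 or above in some settings.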

How the data were processed

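RNA was labelled with Cy3 and hybridised to 1-colour Agilent arrays, per the labels' protocols. The deposited scanner files hold spot intensity from Agilent Feature Extraction (10.9.1.1 per the file headers, 10.10 per the submitters' processing notes). The processed intensity is background-subtracted and detrended within each array by the authors' software, per the file headers, with 0-or-1 flags beside it. The authors' deposited log2 table states neither scale nor normalization. Each column followed the log2 median signal of the array it is named for (r at least 0.998) and had a median of 6.15 to 6.16, and the table served as an alternative.

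Control spots and flagged spots (98 to 159 per array) were left out, and spots of a probe were averaged. Log2 processed signal minus the array's 75th percentile was fitted with limma 3.58.1 in R 4.3.3 (lmFit, eBayes, genotype only) over all probes above background on at least 4 of 8 arrays. The threshold was a Benjamini-Hochberg adjusted p under 0.05. A gene in a list stands by its brightest probe. Symbols came from RefSeq accessions in a GRCm38.p6 table (27236 probes matched, 28445 not). NM_133362, absent from it, was named by the rule that defines the genes. The array grid is of another build, so the table gave only names and gene order, and starts in the first 3 Mb of a chromosome were skipped as coordinates of alternate loci.

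All members and lists were chosen with earlier results of these data known. Named beside the members were Atf3, any called gene and the 3 smallest p-values of each list, any called neighbour and the 3 genes most like each member. On simulated data for this comparison with 27942 probes, limma recovered 38% of probes given a 1.5-fold change. The share was 64% at 2-fold, 96% at 4-fold and 98% at 8-fold. The simulated noise was independent between probes, so variation shared by the probes of an array was not modelled. These shares may therefore not hold for the real arrays. The number of arrays limits precision. One gene of the substrain list is not reported here by name.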

Additional observations from a re-analysis of the deposited data

Results flagged for a closer look

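In WT replicate 4 the Erdr1 level was 1.51, far from the other 3 WT values, the nearest of which was 2.63. The gap was 0.871 of the group's whole range, above Dixon's critical value for a group of this size. Of 20 groups of 4 arrays tested over the features of the named genes and NM_008710, this was the 1 that stood out, and chance flags about 1 in 20.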

How the results depend on the processing

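The Erdr1 difference was −2.99 when background was corrected by normexp, and the deposited table gave −3.22. The normexp setting adds an offset of 50, against processed Erdr1 signals of 25.9 to 36.9 in ATF3 KO. In the deposited table the ATF3 KO values of Erdr1 were 6.27 to 6.53, with column medians of 6.15 to 6.16. The part of signal near background in these smaller differences was not tested. Leaving out each array in turn gave −4.89 to −4.46. The brightest Wdfy1 feature was at 0.00 with normexp, quantile normalization and the deposited table and at 0.01 with the percentile over probes above background on all arrays (−0.20 to −0.07 leaving out 1 array). Entpd4 was at −0.29 with normexp, −0.23 with that percentile and −0.28 with the deposited table. The Atf3 difference passed limma's threshold with normexp (0.51, adjusted p = 0.0409) and the deposited table (0.54, adjusted p = 0.0342). A change of scaling percentile moves the difference of every unflagged feature by the same amount. The median of all features was 0.05 with the percentile over probes above background on all arrays, against −0.10 in the main fit. It was −0.03 with normexp, −0.05 with quantile normalization and −0.03 with the deposited table. The cause of the other shifts was not tested. The first Nlrp12 feature ran from −0.47 to −0.19 leaving out 1 array, and the second from 0.07 to 0.27.

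The main count of 58 features past the threshold (44 higher, 14 lower) became 145 with normexp, 234 with median scaling, 9 with no filter on dim probes, 89 with only probes above background on all 8 arrays, 95 with 1 probe per gene, 212 with trend and robust variances and 187 with the deposited table. Leaving out 1 array gave 5 (without WT replicate 3) to 149 (without ATF3 KO replicate 3), and 7 when WT replicate 1 and 11 when ATF3 KO replicate 2 was left out. The share that was higher, 75.9% in the main fit, was 64.3% with quantile normalization and 44.4% with no filter, and it was 36.4% (4 higher, 7 lower) when ATF3 KO replicate 2 was left out. The replicate block gave 54 calls, 29 of them among the 58, and deviations of same-numbered arrays correlated at −0.26 to 0.20, so the numbers were not taken as a pairing. In each of the 8 lists and in each alternative, 0 genes passed. Signal near background limits the dimmer Entpd4 feature and the Erdr1 values in ATF3 KO.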

Other observations

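A pair of features carry the accession NM_008710, which the gene table does not list. The table gives Nnt another accession, and whether both stand for 1 gene was not settled with the sources used here, so the values are given under the accession alone. A_55_P2144285 was at 4.17, 4.28, 4.18 and 4.19 in WT and at 4.00, 3.79, 3.98 and 3.81 in ATF3 KO. All 8 values were above background, and every ATF3 KO value was below every WT value. Groups lay apart in that direction for 10.4% of all tested features, and 12.5% had a lower difference. The difference of −0.31 (SE 0.09) was −0.21 relative to the median of all features, and it ran from −0.39 to −0.16 over 19 alternatives. A_55_P2144280 was above background on 1 array of each group, and its groups overlapped.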
